A study of Mus musculus with 4 samples.

Results

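Mitochondrial and peroxisomal fatty acid oxidation, together with a few target genes of the peroxisome proliferator-activated receptors (PPARs), was followed through 40 named genes in mouse ileum after treatment with pregnenolone-16α-carbonitrile (PCN). PCN is a ligand of the rodent pregnane X receptor (PXR), a nuclear receptor that switches on genes of drug and steroid metabolism. The genes were chosen by name, and their rows were taken from a table of 21160 protein-coding transcripts of 11489 genes. Of the 40, 37 were in the table, with 75 transcripts, and 36 passed the filter on low values that left 11103 genes for testing. Acaa1b, Pdk4 and Cyp4a10 were not analysed here, and Angptl4 was measured but was below the filter.

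The PCN group was 8-week-old wild-type C57BL/6J mice that received 40 mg/kg PCN by intraperitoneal injection 3 times at intervals of 8 h and were killed 8 h after the last dose. The reference mice, of the same strain, age and genotype, carry the treatment label DMSO. PCN itself was given in DMSO and corn oil. Total RNA of the ileum, the last segment of the small intestine, gave 2 libraries for PCN and 2 for DMSO. The labels speak of mice but give no animal for a library, and the p-values therefore reflect only the variation among these 4 samples, part of which may be technical.

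Values are FPKM, fragments counted relative to the length of a transcript and to the size of the library, summed over the transcripts of a gene. Summed FPKM were 510900 and 481925 in the PCN libraries and 482986 and 550832 in the DMSO libraries, but these sums are not read depths, which are unknown here. DMSO replicate 2 stood apart from the other libraries. Its correlation over the tested genes was 0.948 with each PCN library and 0.955 with DMSO replicate 1, whereas the PCN libraries correlated at 0.980. The PCN target Cyp3a11, a drug-metabolising cytochrome P450, had 163 and 214 FPKM in the PCN libraries, against 26.1 and 14.7 FPKM in the DMSO libraries. The summed level of 12 smooth muscle markers was 269 and 339 FPKM in the PCN libraries, against 469 and 956 FPKM in the DMSO libraries, and all 12 had a negative fold change. The 7 measured fat markers summed to 41.2 and 59.0 FPKM in the PCN libraries, against 52.5 and 141 FPKM in the DMSO libraries, and all 7 were negative. Plin1 and Lep, which define fat, were not analysed here. The part of these tissues in the results below was not tested. A fit with the smooth muscle level as a covariate cannot settle it, because that level itself separated the groups. In pieces of tissue, fewer cells of a type and less RNA per cell cannot be told apart.

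Fatty acids are activated to acyl-CoA by long-chain acyl-CoA synthetases and enter mitochondria as carnitine esters. There they are shortened in a spiral of dehydrogenation, hydration, a further dehydrogenation and thiolysis, and electron transfer flavoprotein (ETF) carries electrons from the first step to the respiratory chain. Peroxisomes run a parallel pathway on very long, branched and dicarboxylic acids and pass shortened products to mitochondria. The acetyl-CoA that results can be turned into ketone bodies, mainly in liver. PPARα, the receptor best known for control of these genes, binds DNA with the retinoid X receptor at direct repeats of the core AGGTCA spaced by a single base, and PXR binds repeats of a related core with wider spacing. Absorptive cells of the small intestine take up dietary fat and carry out fatty acid oxidation.

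Sequence upstream of the RefSeq starts of 6 mitochondrial genes is shown because these genes span import, the first oxidation and the trifunctional protein and did not all lie on the same side of their DMSO values. Cpt1a, Acadl and Acadvl were higher in both PCN libraries, Acadm was lower in both, and Hadha and Hadhb, both higher, share 1 stretch of DNA between their divergent starts. The sequences are from RefSeq for build GRCm38.p6, 5′ to 3′ on the strand of the gene, with exon bases left out. GENCODE also places a Cpt1a start further upstream, so the Cpt1a stretch lies in an intron of that longer gene model. Capitals mark the letters AGGTCA or their reverse complement TGACCT.
Cpt1a, chr19:3323051-3323284, plus strand: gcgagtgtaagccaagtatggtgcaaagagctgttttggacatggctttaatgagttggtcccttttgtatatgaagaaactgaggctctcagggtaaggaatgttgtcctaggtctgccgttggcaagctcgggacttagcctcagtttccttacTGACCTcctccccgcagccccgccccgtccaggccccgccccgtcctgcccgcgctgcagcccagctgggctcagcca
Acadl, chr1:66863310-66863559, minus strand: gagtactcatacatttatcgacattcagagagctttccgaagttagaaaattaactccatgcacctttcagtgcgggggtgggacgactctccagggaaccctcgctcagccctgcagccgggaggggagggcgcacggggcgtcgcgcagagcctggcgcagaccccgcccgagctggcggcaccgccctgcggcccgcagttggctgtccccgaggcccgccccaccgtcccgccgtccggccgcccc
Acadvl, chr11:70015429-70015678, minus strand: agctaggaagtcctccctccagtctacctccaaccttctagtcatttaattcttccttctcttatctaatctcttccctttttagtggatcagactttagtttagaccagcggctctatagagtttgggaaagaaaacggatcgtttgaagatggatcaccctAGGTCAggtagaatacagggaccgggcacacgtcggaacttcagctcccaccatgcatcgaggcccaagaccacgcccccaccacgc
Acadm, chr3:153944644-153944893, minus strand: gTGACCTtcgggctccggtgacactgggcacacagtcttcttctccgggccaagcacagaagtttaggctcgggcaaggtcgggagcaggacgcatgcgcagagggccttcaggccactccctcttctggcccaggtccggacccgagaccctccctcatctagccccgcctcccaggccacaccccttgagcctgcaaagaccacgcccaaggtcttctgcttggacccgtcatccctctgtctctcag
Hadha and Hadhb, chr5:30155163-30155247, strand of Hadhb (plus): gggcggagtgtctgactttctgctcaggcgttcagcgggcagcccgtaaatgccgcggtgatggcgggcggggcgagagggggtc

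AGGTCA was found on either strand in 6 of 37 member windows (16.2%), in Acadm, Acadvl, Cpt1a, Creb3l3, Echs1 and Plin2. Each window runs over 250 bases before and 50 bases after a RefSeq start. The windows do not match the measured members gene for gene. Abcd3, Acsl1, Bdh1 and Creb3l3 had 2 windows each, and windows of Acaa1b and Pdk4 were included. Vnn1, Acaa2, Hsd17b4, Angptl4, Crat, Decr1 and Cyp4a10 had no window and were not searched. Among all 32851 windows of the same length the share was 16.3%. A pair of AGGNCA cores in the same orientation with 1 base between them, the PPAR-type spacing, was in 0 of 37 member windows and in 0.381% of all windows. A pair of AGNTCA cores in the same orientation with 4 bases between them, a PXR-type spacing, was in 0 of 37 and in 0.125%. Among the genes with sequence shown, the AGGTCA core occurred in Acadm, Cpt1a and Acadvl, and not in the windows of Acadl, Hadha and Hadhb. Whether the core bears on the direction of a gene was not tested. A match is only a run of letters, and the repeats may lie outside these windows.

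The members spanned a wide range of levels. Hadh and Ucp2 were the most abundant, at means of 196 ± 12.8 and 211 ± 13 FPKM in the PCN libraries and 222 ± 17.7 and 190 ± 3.39 FPKM in the DMSO libraries (SD, n = 2 each). Acadsb lay between 1.58 and 2.80 FPKM in all 4 libraries, and Angptl4 between 0.440 and 1.57 FPKM. All other members averaged above 3 FPKM in both groups.

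**Figure D1:**
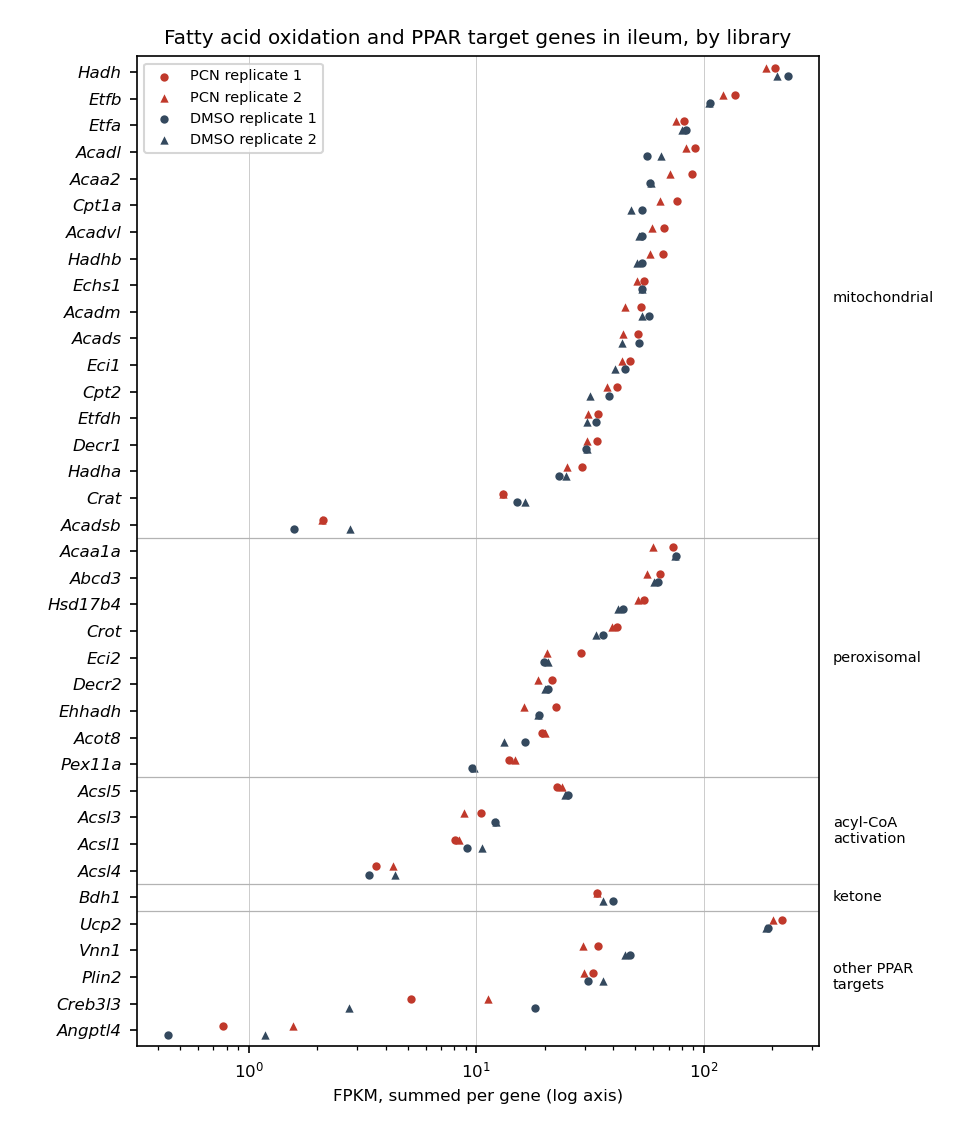
Level of each of the 37 measured members in FPKM (log axis) in each library, with members grouped by role and PCN points (red) drawn above DMSO points (dark blue). Hadh and Ucp2 lie between 187 and 234 FPKM, and the libraries of most members lie close together on this axis.

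No member passed the test of PCN against DMSO. In limma's test over all genes, 0 of 36 members had a Benjamini-Hochberg adjusted p under 0.05, where 15 of 11103 genes (0.135%) did. The lowest value among members was an adjusted p of 0.200, for Acadl. The PCN target Cyp3a11 did not pass this test either, at a log2 fold change of 3.19 and an adjusted p of 0.064. Missing the threshold therefore does not show that a member was unchanged. Without adjustment, 8 of 36 members (22.2%) were higher and 1 (2.78%) was lower at the 0.05 level, where 5.25% of all genes were higher and 4.11% were lower. Both PCN libraries lay above both DMSO libraries in 13 of 36 members (36.1%), against 21.1% of all genes, and below both in 9 members (25.0%), against 19.1% of all genes. The other 14 overlapped. The median log2 fold change of the members was 0.03, beside 0.00285 over all genes.

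The 8 genes on the higher side were Cpt1a, Acadvl, Acadl, Acaa2 and Etfb of the mitochondrial subset and Hsd17b4, Pex11a and Acot8 of the peroxisomal subset, and the single gene on the lower side was Vnn1. The count of 8 depended on single libraries. It was 3 without PCN replicate 1, 9 without PCN replicate 2, 5 without DMSO replicate 1 and 2 without DMSO replicate 2, and it was 2 with the smooth muscle level as a covariate. The count of higher genes over all 11103 also moved in these fits, and was 362 with the covariate beside 583 as reported. A change particular to the members can therefore not be read from these counts. In addition, PCN replicate 1 was above PCN replicate 2 in 29 of 36 members (80.6%), against 52.7% of all genes, so the spread within the PCN group had a direction shared by most members.

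**Figure D2:**
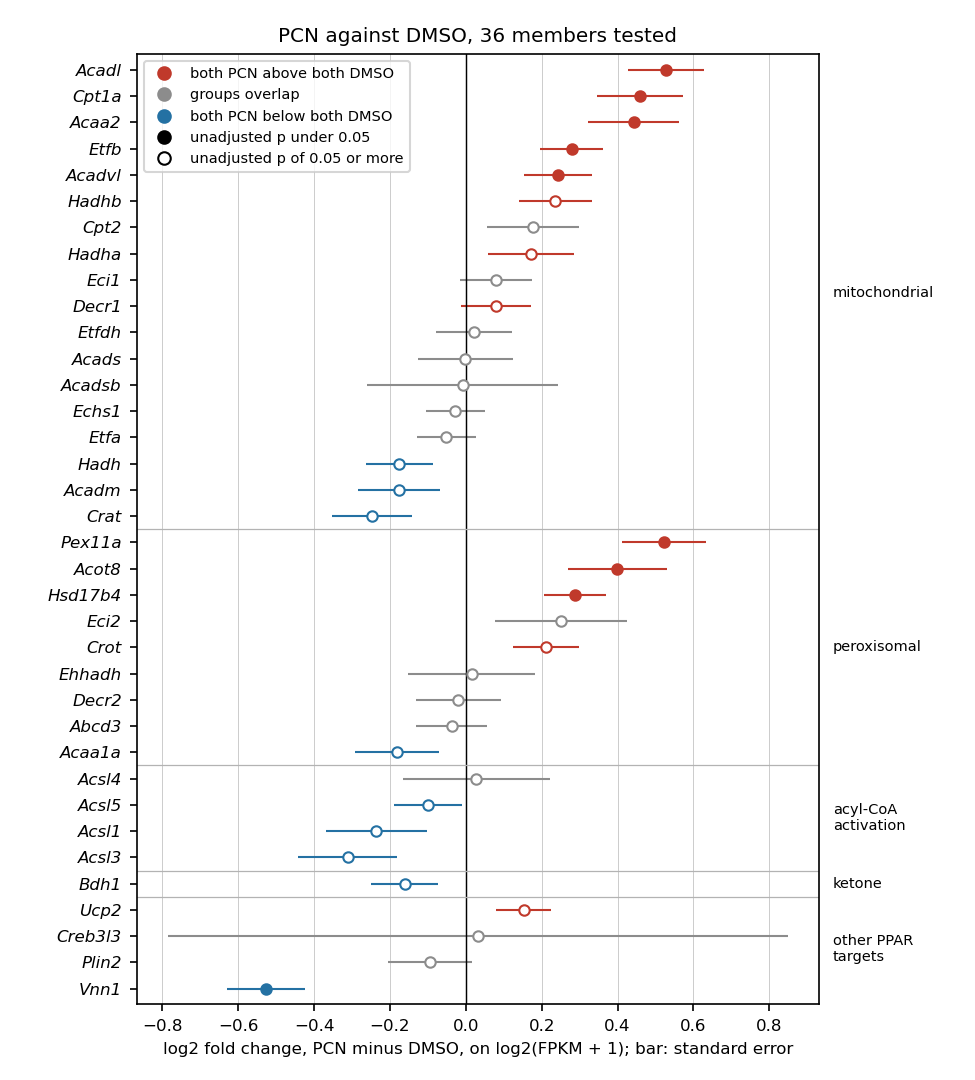
Log2 fold change of PCN over DMSO on the log2(FPKM + 1) scale for each tested member, with bars for the standard error, grouped by role. Colour shows whether both PCN libraries lay above or below both DMSO libraries or the groups overlapped, and filled points are past the unadjusted level of 0.05. Acadl (0.53), Pex11a (0.52) and Cpt1a (0.46) lie farthest to the positive side with small errors and Vnn1 (-0.53) to the negative side, and Creb3l3 has the widest error.

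Carnitine import into mitochondria starts with Cpt1a, the rate-limiting carnitine palmitoyltransferase of the outer membrane (chromosome 19, 3322334 to 3385733, plus strand, GRCm38). Cpt1a had 76.2 and 64.2 FPKM in the PCN libraries, against 53.4 and 47.9 FPKM in the DMSO libraries. Both PCN values were above both DMSO values. The means were 70.2 ± 8.47 and 50.7 ± 3.86 FPKM, a 1.39-fold difference, with a log2 fold change of 0.46 ± 0.11 (SE) and an adjusted p of 0.304.

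Cpt2, the partner enzyme on the inner membrane, had 41.4 and 37.6 FPKM in the PCN libraries, against 38.3 and 31.6 FPKM in the DMSO libraries, so its groups overlapped. Within each library the ratio of Cpt1a to Cpt2 was 1.84 and 1.71 with PCN and 1.40 and 1.52 with DMSO. Crat, which transfers short acyl groups to and from carnitine, was lower in both PCN libraries, at 13.1 and 13.1 FPKM with PCN against 15.1 and 16.4 FPKM with DMSO. The log2 fold change of Crat was -0.25 ± 0.11 (adjusted p = 0.564). Cpt1a and Crat thus lay on opposite sides, although neither passed the adjusted test.

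The acyl-CoA dehydrogenases carry out the first oxidation, each on a range of chain lengths. Acadl, which takes long chains (chromosome 1, 66830839 to 66863277, minus strand), had 91.6 and 83.4 FPKM in the PCN libraries, against 56.4 and 64.5 FPKM in the DMSO libraries. Its groups were well apart, and the means of 87.5 ± 5.81 and 60.5 ± 5.73 FPKM differed 1.45-fold. The log2 fold change was 0.53 ± 0.10 with an adjusted p of 0.200. Acadvl, which takes very long chains at the inner membrane (chromosome 11, 70010183 to 70015411, minus strand), had 66.6 and 59.1 FPKM with PCN, against 53.8 and 51.9 FPKM with DMSO. Its groups did not overlap either, at a log2 fold change of 0.24 ± 0.09 and an adjusted p of 0.502.

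Acadm, the medium-chain dehydrogenase, lay on the other side, at 53.2 and 45.1 FPKM with PCN against 57.6 and 53.5 FPKM with DMSO. Its groups came within 1 FPKM of each other, and the log2 fold change was -0.18 ± 0.11 with an adjusted p of 0.690. The ratio of Acadl to Acadm was 1.72 and 1.85 in the PCN libraries and 0.980 and 1.21 in the DMSO libraries, and that of Acadvl to Acadm was 1.25 and 1.31 with PCN and 0.933 and 0.971 with DMSO. Both ratios were therefore higher in each PCN library than in each DMSO library. This follows from the separations already given for the single genes, and neither ratio was tested. Acads, for short chains, had 51.3 and 44.1 FPKM with PCN against 51.9 and 43.7 FPKM with DMSO, and the low Acadsb, for short branched chains, also overlapped.

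Hadha and Hadhb encode the subunits of the trifunctional protein, which carries out the later steps on long chains. Hadha had 29.3 and 25.0 FPKM in the PCN libraries, against 23.1 and 24.8 FPKM in the DMSO libraries. Hadhb had 66.0 and 57.7 FPKM with PCN, against 53.7 and 50.9 FPKM with DMSO. Both subunits were higher in both PCN libraries, although Hadha by a margin of less than 1 FPKM between its nearest libraries. Their log2 fold changes were 0.17 ± 0.11 and 0.24 ± 0.10, and the ratio of Hadhb to Hadha overlapped, at 2.25 and 2.31 with PCN and 2.33 and 2.05 with DMSO.

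The soluble enzymes of the later steps diverged. Hadh, the short-chain hydroxyacyl-CoA dehydrogenase, had 205 and 187 FPKM in the PCN libraries, against 234 and 209 FPKM in the DMSO libraries, and its log2 fold change was -0.18 ± 0.09 (adjusted p = 0.625). Acaa2, the thiolase of the last step (chromosome 18, 74779197 to 74806208, plus strand), had 88.6 and 71.2 FPKM with PCN, against 58.0 and 58.4 FPKM with DMSO. Its PCN mean of 79.9 ± 12.3 FPKM was 1.37-fold the DMSO mean of 58.2 ± 0.222 FPKM, with a log2 fold change of 0.44 ± 0.12 (adjusted p = 0.349). The hydratase Echs1 overlapped, at 54.4 and 50.7 FPKM with PCN and 53.5 and 53.7 FPKM with DMSO. Decr1 and Eci1, which prepare unsaturated chains, differed little: Decr1 had 34.0 and 30.7 FPKM with PCN against 30.5 and 30.6 FPKM with DMSO, and Eci1 overlapped.

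ETF is a dimer of the products of Etfa and Etfb, and Etfdh passes its electrons to ubiquinone. Etfb (chromosome 7, 43444083 to 43457800, plus strand) had 137 and 121 FPKM in the PCN libraries, against 107 and 105 FPKM in the DMSO libraries. The PCN mean of 129 ± 10.9 FPKM was 1.22-fold the DMSO mean of 106 ± 1.06 FPKM, at a log2 fold change of 0.28 ± 0.08 and an adjusted p of 0.397. Etfa, by contrast, overlapped, with 82.1 and 75.5 FPKM with PCN and 83.4 and 79.9 FPKM with DMSO. The ratio of Etfb to Etfa was 1.66 and 1.60 in the PCN libraries and 1.28 and 1.31 in the DMSO libraries. It was thus higher in each PCN library than in each DMSO library, a difference that was not tested. Etfdh overlapped, at 34.2 and 31.0 FPKM with PCN and 33.7 and 30.5 FPKM with DMSO.

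Across the 18 mitochondrial members, 8 had both PCN libraries above both DMSO libraries, 3 (Crat, Acadm and Hadh) had both below, and 7 overlapped. The shares above and below were 44.4% and 16.7%, against 21.1% and 19.1% of all tested genes. The median log2 fold change of the 18 was 0.08.

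In the peroxisomal subset, 9 of 10 members were measured. Both PCN libraries lay above both DMSO libraries in 4 (44.4%, against 21.1% of all tested genes). Both lay below in 1 (11.1%, against 19.1%), and 4 overlapped. The median log2 fold change was 0.21. The median was 0.015 without PCN replicate 1, 0.090 with the smooth muscle covariate and 0.11 on the most abundant transcript of each gene. Pex11a, a membrane protein of peroxisome division and a classic PPARα target in mouse liver (chromosome 7, 79735957 to 79743131, minus strand), had 13.9 and 14.8 FPKM in the PCN libraries, against 9.55 and 9.79 FPKM in the DMSO libraries. Its groups were tight and apart. The means of 14.3 ± 0.608 and 9.67 ± 0.167 FPKM differed 1.48-fold, the largest ratio of means among the 9 members on either side of the unadjusted level, with a log2 fold change of 0.52 ± 0.11 and an adjusted p of 0.234.

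Hsd17b4, the bifunctional enzyme that handles branched and very long chains (chromosome 18, 50128201 to 50196269, plus strand), had 54.7 and 51.3 FPKM with PCN, against 44.3 and 42.0 FPKM with DMSO. Its means were 53.0 ± 2.38 and 43.2 ± 1.61 FPKM, with a log2 fold change of 0.29 ± 0.08 (adjusted p = 0.367). Ehhadh, the other bifunctional enzyme and a strong PPARα target in rodent liver, had 22.4 and 16.2 FPKM with PCN, against 18.9 and 18.8 FPKM with DMSO, and overlapped. The 2 bifunctional enzymes therefore differed in whether the groups were apart. The ratio of Hsd17b4 to Ehhadh was 2.44 and 3.17 with PCN and 2.34 and 2.24 with DMSO.

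Acot8, a peroxisomal thioesterase that releases acids from CoA (chromosome 2, 164792765 to 164804882, minus strand), had 19.4 and 20.0 FPKM in the PCN libraries, against 16.3 and 13.3 FPKM in the DMSO libraries. Both PCN values were above both DMSO values, with means of 19.7 ± 0.436 and 14.8 ± 2.14 FPKM and a log2 fold change of 0.40 ± 0.13 (adjusted p = 0.448). Crot, which exports shortened chains as carnitine esters, had 41.5 and 39.4 FPKM with PCN, against 36.1 and 33.5 FPKM with DMSO, also without overlap.

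The peroxisomal thiolase Acaa1a had 73.0 and 59.96 FPKM with PCN, against 75.8 and 74.5 FPKM with DMSO, a log2 fold change of -0.18 ± 0.11 (adjusted p = 0.690). Its near-identical copy Acaa1b was not analysed here, and how the estimates divided reads between them is not known. The most abundant peroxisomal members after Acaa1a were Abcd3, a transporter of acids into the peroxisome, and Hsd17b4. Abcd3 overlapped, at 64.3 and 56.2 FPKM with PCN and 62.9 and 60.6 FPKM with DMSO. Decr2 and Eci2, which act on unsaturated chains, overlapped too.

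All 3 non-overlapping synthetases of acyl-CoA activation were lower with PCN. Of all tested genes, 19.1% had both PCN libraries below both DMSO libraries. Acsl1 had 8.03 and 8.38 FPKM in the PCN libraries, against 9.15 and 10.6 FPKM in the DMSO libraries. Acsl3 had 10.4 and 8.85 FPKM with PCN, against 12.1 and 12.3 FPKM with DMSO. Acsl5, the most abundant of the 4 Acsl members, had 22.7 and 23.9 FPKM with PCN, against 25.4 and 24.6 FPKM with DMSO. These gaps were small: log2 fold changes were -0.24, -0.31 and -0.10, and none passed the test. Acsl4, which prefers arachidonic acid, overlapped at 3.62 and 4.33 FPKM with PCN and 3.37 and 4.41 FPKM with DMSO. The median of the 4 was -0.17, and -0.03 when only the most abundant transcript of each gene was used.

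Bdh1, which interconverts the ketone bodies acetoacetate and β-hydroxybutyrate, was the only ketogenic member (chromosome 16, 31422280 to 31458901, plus strand). It had 34.0 and 33.8 FPKM in the PCN libraries, against 40.0 and 36.2 FPKM in the DMSO libraries, a log2 fold change of -0.16 ± 0.09 (adjusted p = 0.667). Its most abundant transcript had 22.1 and 21.9 FPKM with PCN, against 21.9 and 20.3 FPKM with DMSO, and alone gave a log2 fold change of 0.06. The direction of Bdh1 thus rested on its less abundant transcripts. A further transcript had 7.33 and 11.9 FPKM with PCN, against 11.6 and 15.9 FPKM with DMSO.

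Oxct1, which uses ketone bodies and was read beside Bdh1, had 73.4 and 66.0 FPKM in the PCN libraries, against 61.0 and 59.1 FPKM in the DMSO libraries. Its groups did not overlap, and it did not pass the adjusted test.

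Of 7 members in the group of other PPAR targets, 5 were measured. Vnn1, a pantetheinase and PPARα target (chromosome 10, 23894688 to 23905343, plus strand), had 34.3 and 29.6 FPKM in the PCN libraries, against 47.5 and 45.2 FPKM in the DMSO libraries. Both PCN values were well below both DMSO values. The means of 31.9 ± 3.36 and 46.3 ± 1.59 FPKM gave a ratio of 0.689, with a log2 fold change of -0.53 ± 0.10 and an adjusted p of 0.209. Ucp2, an uncoupling protein homologue of the inner mitochondrial membrane, had 221 and 202 FPKM with PCN, against 192 and 187 FPKM with DMSO, at a log2 fold change of 0.15 ± 0.07 (adjusted p = 0.598).

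Plin2, which coats lipid droplets, overlapped at 32.6 and 29.8 FPKM with PCN and 31.0 and 35.9 FPKM with DMSO. Angptl4, a secreted inhibitor of lipoprotein lipase, had 0.773 and 1.57 FPKM with PCN and 0.440 and 1.18 FPKM with DMSO, and was too low to be tested. Creb3l3, a transcription factor of lipid metabolism, had 5.16 and 11.2 FPKM with PCN and 18.2 and 2.76 FPKM with DMSO. Both Creb3l3 extremes were DMSO libraries. Its leading transcript made up 95.8% to 99.1% of the gene in 3 libraries and 7.11% in DMSO replicate 2, so the low value came with a different division between its transcripts.

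Of the 37 measured members, 14 had 1 transcript in the table, and in 25 the same transcript made up at least 90% of the gene in every library. In 12 of 75 member transcripts (16%), and in 17.4% of all transcripts, some library held a value that was identical, to the last digit, to that of a different gene. Such ties can arise where few fragments were counted.

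Summed over a subset, the groups overlapped in 3 of the 4 subsets with more than 1 gene. The 18 mitochondrial genes summed to 1173 and 1042 FPKM in the PCN libraries, against 1049.7 and 996 FPKM in the DMSO libraries, and the 9 peroxisomal genes to 339 and 297 FPKM with PCN against 304 and 293 FPKM with DMSO. The 4 synthetases summed to 44.7 and 45.4 FPKM with PCN, against 49.99 and 51.8 FPKM with DMSO, the only multi-gene subset whose sums did not overlap. All 37 members together took 0.369% and 0.351% of FPKM in the PCN libraries, against 0.359% and 0.2995% in the DMSO libraries. PCN replicate 1 had the highest sum in the mitochondrial, peroxisomal and whole-member sums.

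**Figure D3:**
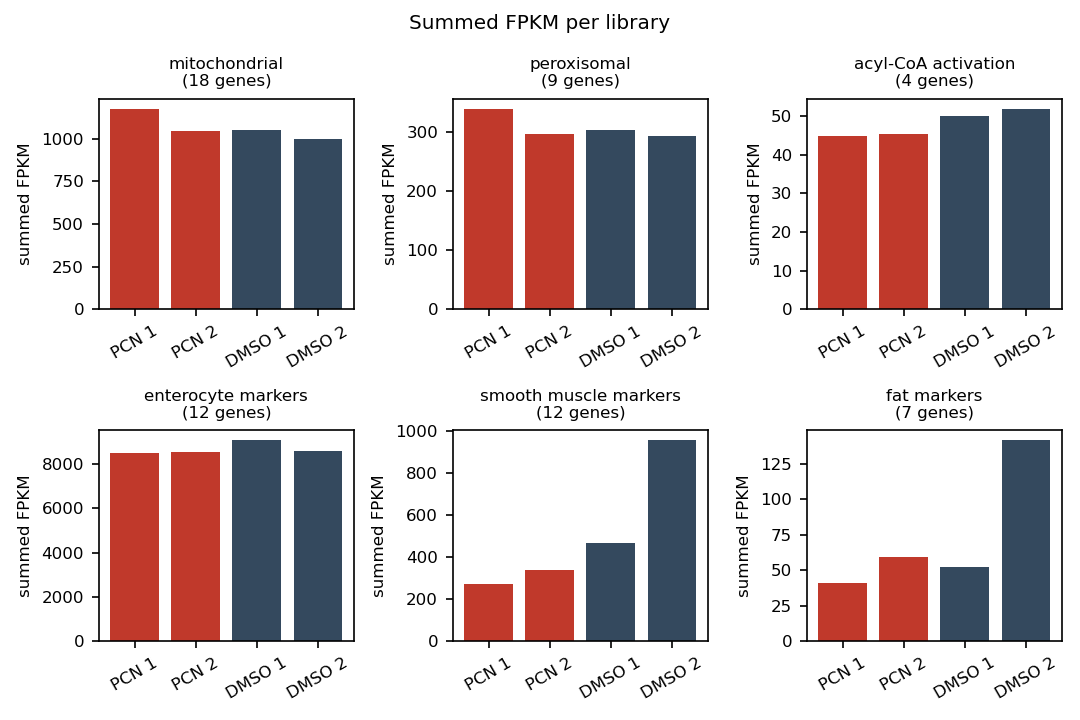
Summed FPKM of 3 member subsets (mitochondrial, peroxisomal, acyl-CoA activation) and of the enterocyte, smooth muscle and fat markers, 1 bar for each library on an axis from 0 that differs between panels, with the PCN libraries (red) left of the DMSO libraries (dark blue). Subset sums lie close together, whereas the smooth muscle sum is 269 and 339 FPKM with PCN and 469 and 956 FPKM with DMSO.

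Absorptive cells were compared as a further measure of tissue makeup. The 12 enterocyte markers summed to 8529 and 8559.7 FPKM in the PCN libraries, against 9082 and 8604 FPKM in the DMSO libraries. Apoa1 and Anpep, the most abundant of the 12, overlapped and made up most of these sums. Of the 12, 5 (41.7%) were lower and 1 (8.33%) higher at the unadjusted level, against 4.11% and 5.25% of all genes. Fabp2 alone passed the adjusted test, at 9.45 and 12.3 FPKM with PCN against 50.5 and 46.8 FPKM with DMSO (adjusted p = 0.040). The 5 ileal enterocyte markers summed to 5068 and 4395 FPKM with PCN against 9121 and 7620 FPKM with DMSO. Most of the ileal sum was Fabp6 alone, at 4228 and 3652 FPKM with PCN against 8059 and 6757 FPKM with DMSO. Slc51a and Fgf15 were also lower in both PCN libraries, whereas Slc10a2 and Slc51b overlapped. The part of tissue makeup in the members' values was not tested, and the covariate fit cannot separate it from the treatment.

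Among further genes of fatty acid oxidation, 41 were tested and 0 passed the adjusted test. Of the 41, 10 (24.4%) were non-overlapping and higher, and 9 (22.0%) non-overlapping and lower. These shares were near the 21.1% and 19.1% of all tested genes. The median log2 fold change of the 41 was 0.01. Slc27a4, a fatty acid transport protein with acyl-CoA synthetase activity, had 97.7 and 92.9 FPKM in the PCN libraries, against 135 and 136 FPKM in the DMSO libraries, at a log2 fold change of -0.50 and an adjusted p of 0.109. It lay on the same side as Acsl1, Acsl3 and Acsl5, whereas Acsl4 and its own relatives Slc27a1 and Slc27a2 overlapped. Acot9, a mitochondrial thioesterase, had 30.8 and 32.6 FPKM with PCN, against 23.0 and 20.0 FPKM with DMSO (adjusted p = 0.209).

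Slc25a20, which carries acylcarnitines across the inner membrane between Cpt1a and Cpt2, had 75.7 and 60.6 FPKM with PCN, against 54.5 and 53.1 FPKM with DMSO. The carrier and Cpt1a were both higher in both PCN libraries. Acot1, a cytosolic thioesterase, had 4.48 and 4.25 FPKM with PCN, against 1.36 and 2.41 FPKM with DMSO, but it belongs to a cluster of close copies and its reads may be divided among them. Pex11g, a relative of Pex11a, had 5.23 and 4.69 FPKM with PCN, against 3.30 and 3.39 FPKM with DMSO. Phyh, of α-oxidation, and Pex19, of peroxisomal membrane assembly, were on the lower side, at log2 fold changes of -0.20 and -0.32.

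Among further PPAR targets, 18 of 29 were tested and 0 passed the adjusted test. Of the 18, 3 (16.7%) were non-overlapping and higher, and 7 (38.9%) non-overlapping and lower. Over all tested genes these shares were 21.1% and 19.1%. The median of the 18 was -0.20. Fabp1, the liver fatty acid binding protein that is also made in the small intestine, had 25.4 and 21.0 FPKM in the PCN libraries, against 12.0 and 11.5 FPKM in the DMSO libraries. Its log2 fold change was 0.92 ± 0.13 with an adjusted p of 0.114. Retsat, a retinol saturase, had 14.5 and 11.7 FPKM with PCN, against 10.2 and 8.85 FPKM with DMSO.

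On the lower side of that list, Gk, glycerol kinase, had 21.8 and 21.8 FPKM with PCN, against 37.3 and 30.6 FPKM with DMSO. Gpd1, glycerol-3-phosphate dehydrogenase, had 77.8 and 76.5 FPKM with PCN, against 97.0 and 98.2 FPKM with DMSO. Pdk2, a kinase that inhibits pyruvate dehydrogenase, had 16.1 and 14.3 FPKM with PCN, against 22.6 and 22.4 FPKM with DMSO. In all 3, both PCN values were clear of both DMSO values, and none passed the adjusted test. Ephx2, soluble epoxide hydrolase, had 14.4 and 17.98 FPKM with PCN, against 23.4 and 24.6 FPKM with DMSO.

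The receptors themselves were compared last. Ppara overlapped, at 6.35 and 5.36 FPKM in the PCN libraries and 5.64 and 6.44 FPKM in the DMSO libraries. Ppard, the most abundant of the 3 PPARs, also overlapped, at 54.0 and 48.8 FPKM with PCN and 53.0 and 39.9 FPKM with DMSO. Pparg had 8.45 and 5.53 FPKM with PCN, against 5.18 and 5.02 FPKM with DMSO, with a log2 fold change of 0.36. Nr1i2, which encodes PXR, had 36.4 and 34.1 FPKM with PCN, against 27.9 and 31.3 FPKM with DMSO, at a log2 fold change of 0.25 (adjusted p = 0.539). None of the 19 tested receptors and partner proteins reached the unadjusted level, where 5.25% of all genes were higher and 4.11% lower. Of the 19, 6 (31.6%) were non-overlapping and higher, and 2 (10.5%) non-overlapping and lower. Over all tested genes these shares were 21.1% and 19.1%. Ppargc1a, a coactivator of mitochondrial genes, had 2.69 and 1.89 FPKM with PCN, against 9.15 and 3.46 FPKM with DMSO, at a log2 fold change of -1.04 ± 0.42 (adjusted p = 0.547).

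The 9 members on either side of the unadjusted level kept their sign under all 13 alternatives to the processing, and 3 of them, Acadl, Pex11a and Vnn1, kept their side of that level too. Most of these alternatives could not change a sign. The groups of the 9 did not overlap, so leaving out a library or changing the pseudocount, filter, trend or replicate block could not. Only the scaling, the transcript choice and the smooth muscle covariate could have done so. Over the 13 alternatives the log2 fold change ran between 0.43 and 0.67 for Acadl, 0.48 and 0.58 for Pex11a and -0.65 and -0.42 for Vnn1. Cpt1a ran between 0.24 and 0.58 and was past the unadjusted level in 10 of 13, Acaa2 in 10, Hsd17b4 and Acot8 in 9, and Etfb and Acadvl in 8. The adjusted p of Acadl ran between 0.124 and 0.636. Without DMSO replicate 2, the library that stood apart, the log2 fold changes were 0.62 for Acadl, 0.54 for Pex11a, 0.38 for Cpt1a, 0.26 for Acot8 and -0.56 for Vnn1. With the smooth muscle level as a covariate they were 0.67 for Acadl, 0.58 for Pex11a and -0.65 for Vnn1, but 0.24 for Cpt1a, 0.15 for Acadvl and 0.14 for Acot8. Acaa2, Etfb and Hsd17b4 came to 0.36, 0.21 and 0.19 in that fit, beside 0.44, 0.28 and 0.29 as reported. The measured difference was thus as large in the covariate fit for Acadl, Pex11a and Vnn1 and smaller for the rest of the 9. The smooth muscle level itself separated the PCN from the DMSO libraries. This fit therefore cannot tell muscle content from treatment, and it does not sort the 9 by cause.

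**Figure D4:**
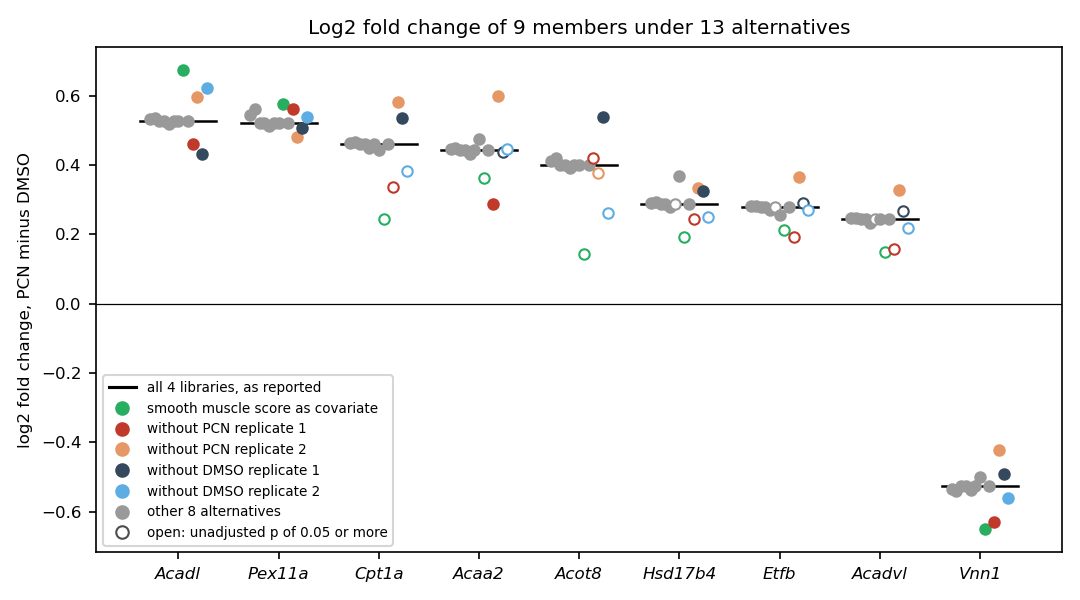
Log2 fold change of PCN over DMSO for the 9 members past the unadjusted level, with a black line for the reported fit and a point for each of the 13 alternatives, open where it missed that level. Acadl stays between 0.43 and 0.67, Pex11a between 0.48 and 0.58 and Vnn1 between -0.65 and -0.42. No member crosses 0, which only the scaling, transcript choice and covariate could have brought about.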

How the data were processed

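Per the labels, total ileal RNA was made into libraries with a SMARTER kit. Groups and replicate numbers are also from the labels. The values are FPKM of each transcript as deposited by the authors, for genome build mm10. The program that estimated them was not given in the sources used here. Supplementary methods of the study describe sequencing of another tissue with another kit, and so were not taken as the source. The table held only protein-coding transcripts whose larger group mean was at least 1.000054 FPKM, so transcripts under that level in each group were not analysed here. Depth cannot be read from FPKM, and no counting intervals are given.

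The transcripts of a gene symbol were added up, and genes averaging 1 FPKM or more across the 4 libraries were kept. The log2(FPKM + 1) values were fitted in limma (version 3.58.1 under R 4.3.3), with the group as the only term and the prior variance allowed to follow the mean. The p-values, for either direction, were Benjamini-Hochberg adjusted over all genes, and 0.05 was the threshold. Fold changes are on that log2 scale and come out too small for genes of low level, and ratios of means are linear. The procedure was tested on simulated data. The study states no test for these libraries.

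The members, the subsets and the other lists were chosen with earlier results of these data known. Members were given in full where they passed the adjusted threshold, where they passed the unadjusted level of 0.05 without overlap, or where they were the 2 most abundant of a subset, together with a few set by name. From other lists, up to 4 genes per direction with the smallest p under 0.05 were eligible to be named, and other members or list genes with values shown were added after their values were seen. A few genes of these lists are not reported here. Alternatives changed the pseudocount, filter, scaling, trend, transcript choice, smooth muscle covariate, replicate block and libraries. Member positions are from GENCODE vM21, and upstream sequences are from RefSeq.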

Additional observations from a re-analysis of the deposited data

How the results depend on the processing

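No member passed the adjusted threshold in any of the 13 alternatives. Members higher at the unadjusted level numbered 5 without the mean-variance trend and 2 with the smooth muscle covariate, beside 8 as reported, and 2 to 9 with a library left out. Members lower numbered 2 with the covariate and 2 with the replicate block, beside 1, and 1 to 2 with a library left out. Over all genes, 15 passed the adjusted threshold as reported, 9 with a pseudocount of 0.1, 10 without a filter, 56 at a mean of at least 5 FPKM, 2 without the trend, 7 on the most abundant transcript, 0 with the covariate, 60 with the replicate block, and 0 to 20 with a library left out. Higher genes at the unadjusted level numbered 362 with the covariate and 362 to 724 with a library left out, beside 583, and lower genes 302 to 558, beside 456. The median log2 fold change of the mitochondrial members, 0.08, was -0.0027 with the covariate and 0.01 to 0.15 with a library left out. That of the peroxisomal members, 0.21, was 0.090 with the covariate, 0.11 on the most abundant transcript and 0.015 to 0.25 with a library left out. The median of the synthetases, -0.17, was -0.24 at a mean of at least 5 FPKM, -0.033 on the most abundant transcript, -0.080 with the covariate, and -0.22 to -0.13 with a library left out. Bdh1, at -0.16, was 0.056 on the most abundant transcript and -0.30 with the covariate. The median of the other PPAR targets, -0.03, was 0.031 without a filter, 0.027 on the most abundant transcript, -0.29 with the covariate, and -0.28 to -0.013 with a library left out. The cause of these shifts was not tested. Whether same-numbered libraries were handled as pairs is not known. Their deviations correlated at 0.0341 over genes, which cannot settle it with 1 difference in each group. A fit without a library leaves a group with 1 sample, assumed to vary like the other group.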
